A study of Mus musculus with 34 samples.

Results

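The matrix metalloproteases (MMPs), the ADAM and ADAMTS proteases with the ADAMTS-like proteins, and their TIMP inhibitors were followed across 4 sorted populations of mouse mammary epithelium. Members were taken by gene symbol from the annotation of the array probes, as every symbol in which Mmp, Adam, Adamts, Adamtsl or Timp is followed by a number. This gave 154 of 45281 probes and 78 of 19057 genes. There were 21 MMP, 32 ADAM, 17 ADAMTS, 4 ADAMTS-like and 4 TIMP genes, and 117 of the 154 probes passed the filter on low values when all arrays were used.

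MMPs are zinc proteases that cut collagens, laminins and other matrix proteins, and most are made as inactive precursors. ADAMs are largely membrane proteins that release the outer parts of other surface proteins such as EGF-family ligands and Notch receptors, while ADAMTS proteases are secreted and cut proteoglycans or process procollagen. TIMPs bind and block these enzymes, and in the mammary gland the balance between the protease and the inhibitor families is known to shape duct growth, branching and involution.

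Cells came from virgin females of 4 weeks, on a CD1 background backcrossed to FVB, that carried both MMTVrtTA and H2BGFP and had received doxycycline. The mouse mammary tumor virus promoter drives the transactivator in these mice, so that a histone-GFP fusion is made in a mosaic of epithelial cells, and the GFP- cells carry the same transgenes and had the same doxycycline. The groups were GFP+ CD24+CD29+ (9 arrays), GFP- CD24+CD29+ (6 arrays), GFP+ CD24+CD29lo (9 arrays) and GFP- CD24+CD29lo (10 arrays). Cells that stained for DAPI, CD45, Ter119 or CD31 were gated out, and the RNA was amplified before labelling. The sources used here do not say whether arrays came from separate animals or pools, so p-values measure the spread between these 34 arrays. Differences between sorted groups cannot tell fewer cells of a type from less RNA per cell.

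The CD24+CD29+ gate is the basal gate and the CD24+CD29lo gate the luminal one, and their markers followed these labels. Of 8 basal markers, 8 were higher in GFP+ CD24+CD29+ than in GFP+ CD24+CD29lo cells and 7 in the same comparison of GFP- cells, while 8 and 9 of 9 luminal markers were lower. Between 26.3% and 46.7% of probes were detected per array, where detected means a detection p under 0.05 against the negative control beads of that array. A set of 12 arrays had higher medians than the other 22 in the authors' processed values, with a gap between, and the same sets did not overlap on the second principal component of the normalized values (11.2% of the variance). The labels give no date or batch for this split, which was found from the data. It left the GFP- CD24+CD29+ group wholly in the second set and the other 3 groups in both. Levels below are log2 normalized intensities, which can be compared between groups for 1 probe but not between probes, and where a gene has several probes the one with the highest mean stands for it.

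Promoters were in the RefSeq table (build GRCm38.p6) for 48 of the 78 member genes, each with 250 bases before and 50 after the annotated start. The next 4 are shown because these genes were higher in the basal gate, by the arrays described below. They are followed by Mmp14 and Adam10, which differed with GFP in luminal cells. Between the gates, Mmp14 was called higher in basal cells only when GFP+, and Adam10 lower in basal cells only when GFP-. Mmp3 and Mmp13 stand for 9 MMP genes that lie next to each other on chromosome 9, where no such difference was seen. Capitals mark, on either strand, the GC box GGGCGG, the TATA motif TATAAA and the AP-1 motif TGACTCA.
Adamts1, chr16:85803064-85803363, minus strand: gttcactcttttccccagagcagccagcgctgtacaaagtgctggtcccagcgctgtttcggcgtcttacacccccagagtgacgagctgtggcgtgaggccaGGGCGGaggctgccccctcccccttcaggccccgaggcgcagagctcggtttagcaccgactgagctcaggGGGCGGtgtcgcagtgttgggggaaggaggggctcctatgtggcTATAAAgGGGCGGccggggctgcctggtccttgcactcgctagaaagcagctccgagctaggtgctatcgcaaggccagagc
Adamts9, chr6:92943485-92943784, minus strand: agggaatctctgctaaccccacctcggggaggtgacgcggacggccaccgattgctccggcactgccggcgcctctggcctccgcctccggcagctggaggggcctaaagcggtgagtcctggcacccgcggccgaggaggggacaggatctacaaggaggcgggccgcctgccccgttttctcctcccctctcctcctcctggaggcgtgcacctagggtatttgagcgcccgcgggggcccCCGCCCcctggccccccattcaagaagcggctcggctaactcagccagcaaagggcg
Adamts18, chr8:113848790-113849089, minus strand: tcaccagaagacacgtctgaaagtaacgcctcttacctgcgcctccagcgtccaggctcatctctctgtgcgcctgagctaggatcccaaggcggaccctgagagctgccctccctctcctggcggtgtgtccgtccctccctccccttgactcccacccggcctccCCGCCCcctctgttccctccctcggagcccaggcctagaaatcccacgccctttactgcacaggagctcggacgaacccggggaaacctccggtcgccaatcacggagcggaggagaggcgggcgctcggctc
Timp3, chr10:86300162-86300461, plus strand: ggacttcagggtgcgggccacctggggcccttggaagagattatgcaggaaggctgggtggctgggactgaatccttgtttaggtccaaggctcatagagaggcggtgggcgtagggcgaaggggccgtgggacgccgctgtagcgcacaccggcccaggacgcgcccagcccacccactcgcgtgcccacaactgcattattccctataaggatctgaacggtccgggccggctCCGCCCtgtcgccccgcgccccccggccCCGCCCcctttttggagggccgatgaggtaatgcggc
Mmp14, chr14:54431348-54431647, plus strand: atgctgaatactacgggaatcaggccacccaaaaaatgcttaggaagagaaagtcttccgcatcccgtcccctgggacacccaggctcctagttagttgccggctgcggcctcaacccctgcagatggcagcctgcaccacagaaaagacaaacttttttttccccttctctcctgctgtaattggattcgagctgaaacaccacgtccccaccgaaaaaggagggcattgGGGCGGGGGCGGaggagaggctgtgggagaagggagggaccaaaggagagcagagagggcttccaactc
Adam10, chr9:70678732-70679031, plus strand: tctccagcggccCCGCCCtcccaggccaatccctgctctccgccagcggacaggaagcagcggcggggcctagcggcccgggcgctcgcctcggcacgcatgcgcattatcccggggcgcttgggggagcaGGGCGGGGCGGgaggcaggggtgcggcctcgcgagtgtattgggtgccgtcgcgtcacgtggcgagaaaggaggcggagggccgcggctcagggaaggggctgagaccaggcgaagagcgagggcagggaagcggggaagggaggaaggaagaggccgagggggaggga
Mmp3, chr9:7445572-7445871, plus strand: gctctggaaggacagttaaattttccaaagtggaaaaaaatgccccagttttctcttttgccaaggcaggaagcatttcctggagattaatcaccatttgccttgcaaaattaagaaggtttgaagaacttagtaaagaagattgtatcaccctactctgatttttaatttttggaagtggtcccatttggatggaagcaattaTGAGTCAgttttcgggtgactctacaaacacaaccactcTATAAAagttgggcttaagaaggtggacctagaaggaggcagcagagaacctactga
Mmp13, chr9:7272264-7272563, plus strand: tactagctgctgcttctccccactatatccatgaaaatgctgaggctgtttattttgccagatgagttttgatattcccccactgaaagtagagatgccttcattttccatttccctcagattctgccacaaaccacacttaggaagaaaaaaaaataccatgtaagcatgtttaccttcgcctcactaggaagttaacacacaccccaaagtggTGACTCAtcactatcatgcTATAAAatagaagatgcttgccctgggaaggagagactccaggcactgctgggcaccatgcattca

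The Adamts1 promoter held 3 GC boxes and a TATAAA that began 32 bases before the start. Those of Adamts9 and Adamts18 held 1 GC box each, those of Timp3 and Mmp14 held 2 and that of Adam10 held 3, counting overlapping copies. Of the 9 members with a promoter entry that were higher in the basal gate in either GFP state, 7 held GGGCGG, 1 held TATAAA and 0 held TGACTCA. Of the 9 MMP genes on chromosome 9, 0 held GGGCGG, 9 held TATAAA and 7 held TGACTCA. Over the 48 member genes with an entry, these included, 47.9% held GGGCGG, 33.3% TATAAA and 18.8% TGACTCA. Over all 32851 promoters of the table, 35.7% held GGGCGG, 13.6% TATAAA and 5.2% TGACTCA. These matches describe letters within 300 bases and nothing more.

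The probes of the chromosome 9 MMPs were mostly dim. Mmp1b, Mmp8 and Mmp20 were detected on 0 of 34 arrays, Mmp7 and Mmp12 on 1, Mmp3 on 3, Mmp10 on 4 and Mmp13 on 10. The exception was the interstitial collagenase Mmp1a, detected on 33 arrays by 1 of its 3 probes, while the other 2 probes were near background. The level of the detected probe split by array set, as given below. Mmp1a and Mmp1b are close copies of each other, so that signal cannot be assigned to Mmp1a with certainty.

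Over all 78 genes, 7 were detected on all 34 arrays and 13 on none. Counting a gene as detected in a group where 50% or more of its arrays detected it, basal cells had 27 genes when GFP+ and 31 when GFP-, and luminal cells had 23 in either GFP state. By this count 18 genes were detected in all 4 groups and 43 in none of them. Adam23, Adamts10, Mmp2, Mmp17 and Mmp23 were detected in both basal groups and in neither luminal group, and Mmp16 in both luminal groups and in neither basal group. The ADAM family held 23 of the 43 genes detected in no group.

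**Figure D1:**
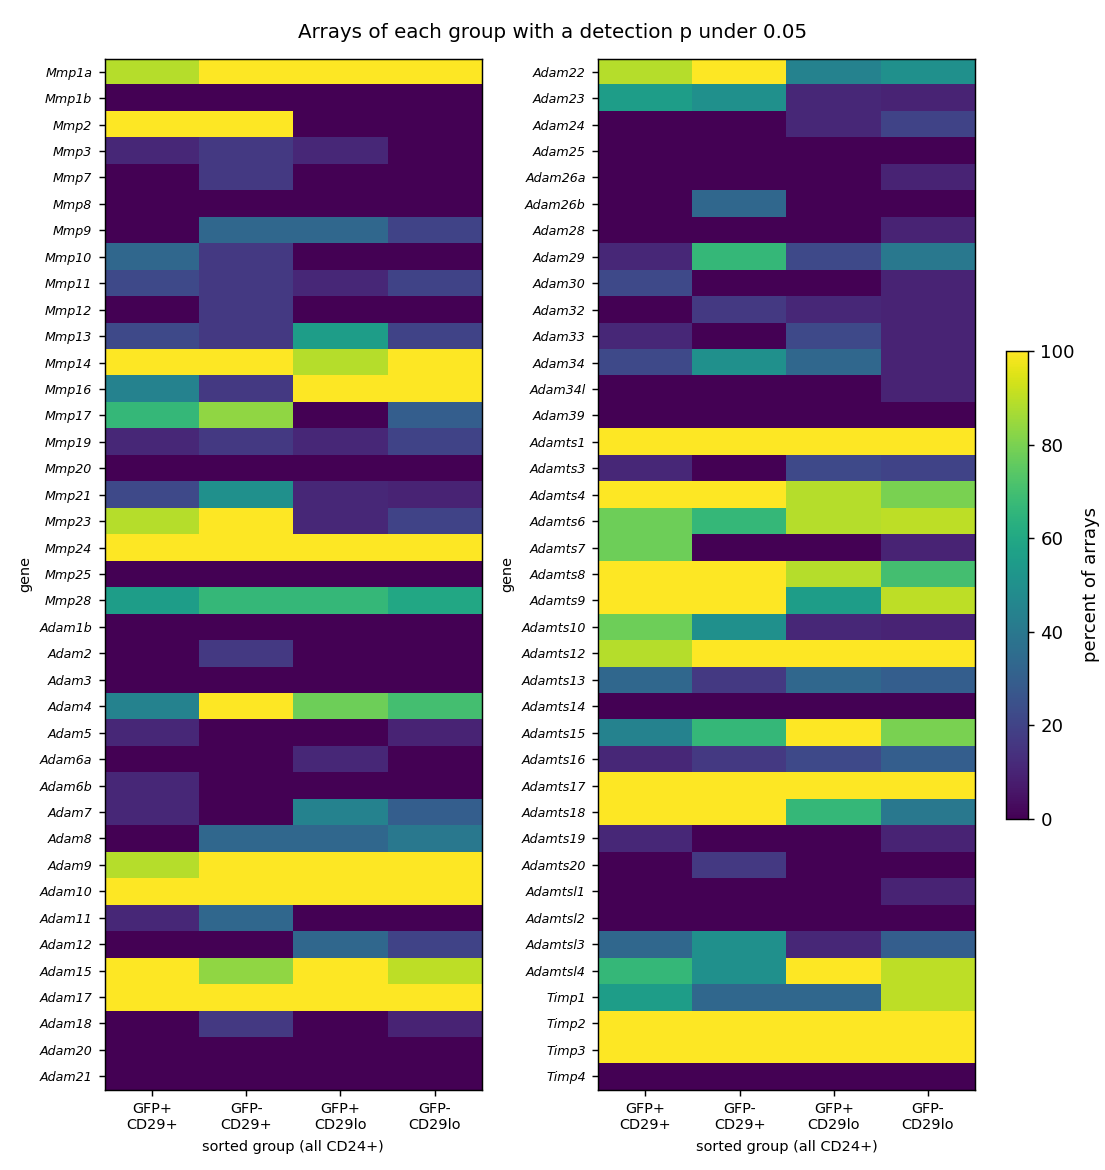
Percent of arrays of each sorted group (columns; all cells CD24+) on which each of the 78 member genes (rows) had a detection p under 0.05, by the probe that stands for the gene. Mmp2 was detected on all arrays of both CD29+ groups and on none of the CD29lo groups, and 13 genes were detected nowhere.

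In the basal gate against the luminal gate the question is how the 2 epithelial layers differ, and it was asked once in GFP+ and once in GFP- cells. In both, 5 of the 16 ADAMTS genes tested (Adamts1, Adamts4, Adamts9, Adamts10 and Adamts18), the gelatinase Mmp2 and the inhibitor Timp3 were higher in basal cells, and the membrane-type protease Mmp16 was lower. In GFP+ cells 21 of 117 member probes passed an adjusted p of 0.05 in limma, or 17.9%, against 10.4% of all probes tested. Of these, 18 were higher in basal cells (5.53% of all probes were) and 3 were lower (4.86% of all). In GFP- cells 22 of 117 passed, or 18.8%, against 10.3% of all probes, with 18 higher (5.29% of all) and 4 lower (5.04% of all). The median difference over all member probes tested was 0.00 in GFP+ and 0.06 in GFP- cells, beside -0.01 and 0.02 over all probes.

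The called probes belonged to 15 genes in GFP+ cells, 12 higher and 3 lower, and to 14 genes in GFP- cells, 12 higher and 2 lower. The same 10 genes were called in the same direction in both, which is 10 of the 15 and 10 of the 14. They were Adamts1, Adamts4, Adamts9, Adamts10, Adamts18, Mmp2, Mmp16, Mmp17, Mmp23 and Timp3. The groups did not overlap for 13 member probes in GFP+ cells and 12 in GFP- cells, beside 2.77% and 3.21% of all probes tested.

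**Figure D2:**
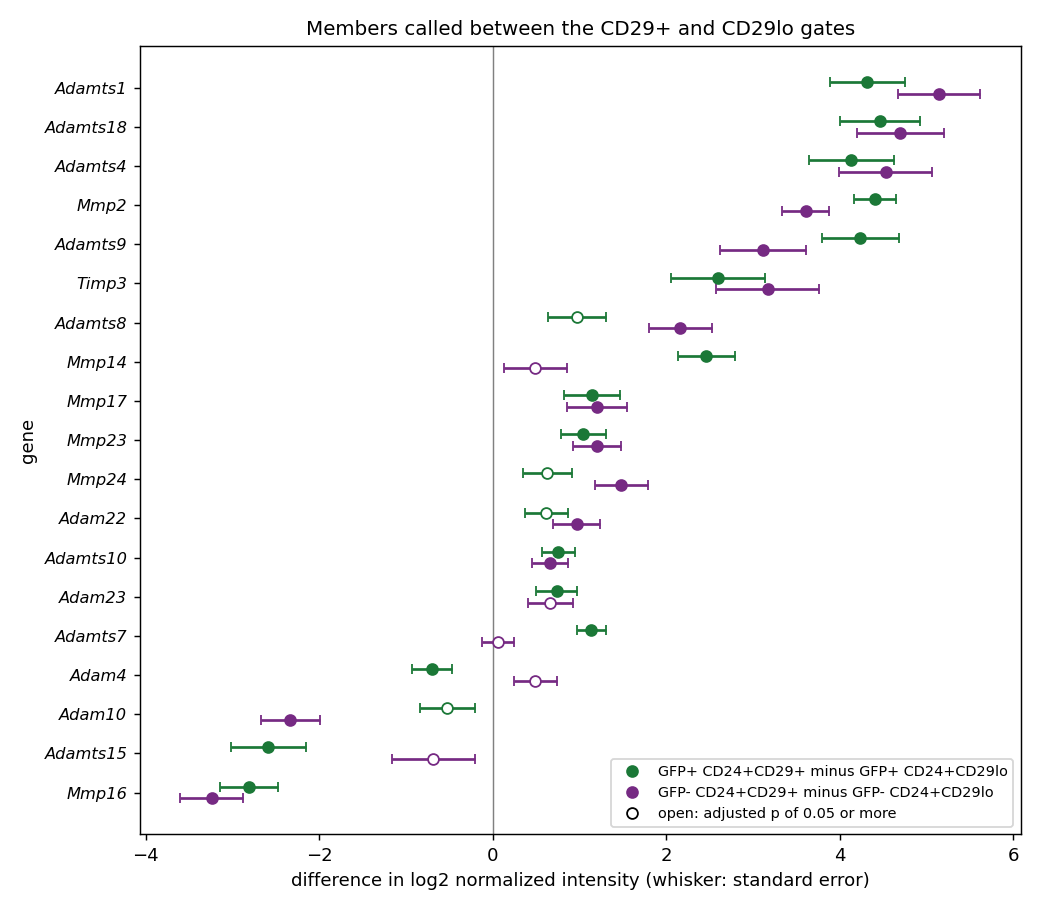
Difference in log2 normalized intensity between the CD24+CD29+ and CD24+CD29lo gates, with its standard error, for the 19 genes called in either GFP state, each shown by its called probe with the largest differences. Filled points have an adjusted p under 0.05, 10 genes are filled in both GFP states, and Mmp16, Adamts15, Adam10 and Adam4 have a called difference below 0.

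Among the proteoglycan-cleaving ADAMTS proteases (6 genes tested), 3 were higher and 1 lower in basal GFP+ cells, and 4 were higher in basal GFP- cells. Adamts1, a protease that cuts versican and aggrecan, read 10.92, 12.21 and 12.39 (lowest, median and highest) in GFP+ CD24+CD29+ and 11.63, 12.05 and 12.27 in GFP- CD24+CD29+ cells, against 5.83, 8.40 and 10.58 in GFP+ CD24+CD29lo and 5.74, 7.07 and 8.61 in GFP- CD24+CD29lo cells. Every basal array lay above every luminal array in either GFP state. The difference was 3.64 ± 0.40 (SE, 12.5-fold, adjusted p 1.75e-08) in GFP+ cells and 4.72 ± 0.44 (26.4-fold, adjusted p 6.94e-10) in GFP- cells. Its other 2 probes were called as well, with differences of 4.32 and 2.46 in GFP+ and 5.15 and 2.81 in GFP- cells.

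Adamts4, a second aggrecan-cleaving enzyme, read 9.88, 10.66 and 11.39 in GFP+ CD24+CD29+ and 10.29, 10.83 and 11.12 in GFP- CD24+CD29+ cells. Its luminal values were 4.42, 6.21 and 9.09 in GFP+ and 4.50, 5.87 and 8.00 in GFP- cells. Basal and luminal arrays did not overlap, although luminal arrays spread from background to near the lowest basal one. The differences were 4.13 ± 0.49 in GFP+ cells (adjusted p 8.89e-08) and 4.53 ± 0.54 in GFP- cells (adjusted p 1.17e-07).

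Adamts9, a versican-cleaving protease, read 8.77, 9.87 and 10.22 in GFP+ CD24+CD29+ and 6.06, 9.70 and 10.11 in GFP- CD24+CD29+ cells, against 4.47, 5.33 and 6.81 in GFP+ and 4.70, 5.79 and 7.77 in GFP- CD24+CD29lo cells. A single GFP- CD24+CD29+ array, replicate 25, fell among the luminal values. The GFP+ difference was 4.24 ± 0.45 (adjusted p 9.99e-09). The GFP- difference was 3.12 ± 0.49 with that array (adjusted p 2.1e-05) and 3.73 without it. Its second probe was called in both.

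Adamts8, another aggrecanase, was called only in GFP- cells (2.16 ± 0.37, adjusted p 6.41e-05), with 0.97 ± 0.34 in GFP+ cells (adjusted p 0.0621). In GFP- cells it read 6.69, 7.38 and 9.09 in CD24+CD29+ and 4.48, 5.65 and 6.94 in CD24+CD29lo cells, so that the groups touched at their edges. Adamts15 went the other way. It read 4.46, 5.28 and 5.79 in GFP+ CD24+CD29+ and 6.18, 7.75 and 9.54 in GFP+ CD24+CD29lo cells, a difference of -2.58 ± 0.43 (adjusted p 3.98e-05) with no overlap. The GFP- values were 4.51, 6.21 and 6.74 in CD24+CD29+ and 4.97, 6.46 and 7.95 in CD24+CD29lo cells, which overlapped (difference -0.68 ± 0.47, adjusted p 0.43). Neither gene's gate difference was shown to differ between GFP states, since the interaction gave 1.19 (adjusted p 0.514) for Adamts8 and 1.90 (adjusted p 0.339) for Adamts15.

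Outside that group, Adamts18, a secreted protease with few known substrates, showed one of the widest gaps. Its levels were 9.28, 10.41 and 11.43 in GFP+ CD24+CD29+ and 7.78, 9.99 and 10.68 in GFP- CD24+CD29+ cells, against 4.43, 6.02 and 8.13 in GFP+ and 4.38, 4.64 and 5.89 in GFP- CD24+CD29lo cells. No basal array reached down to the luminal arrays of its own GFP state. The difference was 4.46 ± 0.46 (adjusted p 5.1e-09) in GFP+ and 4.70 ± 0.50 (adjusted p 1.64e-08) in GFP- cells. A second probe gave at least 12.0-fold in GFP- cells, where it was detected on 6 of 6 basal and 0 of 10 luminal arrays. The other 3 of its 5 probes were dim and were not called in either comparison. Of these, 1 was detected more often in luminal cells (4 of 9 GFP+ and 7 of 10 GFP- arrays) than in basal cells (2 of 9 and 1 of 6).

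Adamts10, which binds fibrillin microfibrils, differed by less, at 0.76 in GFP+ and 0.66 in GFP- cells, and 4 of its 5 probes were not called. Its GFP- call was lost without any 1 of 4 arrays (adjusted p up to 0.104). Adamts7, a protease known to cut the matrix protein COMP, was higher in basal cells in the GFP+ state (1.14 ± 0.17, adjusted p 4.33e-06, at least 1.42-fold, detected on 7 of 9 basal and 0 of 9 luminal arrays). In GFP- cells its difference was 0.06 ± 0.18 (adjusted p 0.893). Neither the procollagen-processing ADAMTS genes, of which 1 could be tested, nor the 3 ADAMTS-like genes tested had a called member, where the genes with the highest means, Adamts3 and Adamtsl4, were detected on 5 and 27 arrays.

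**Figure D3:**
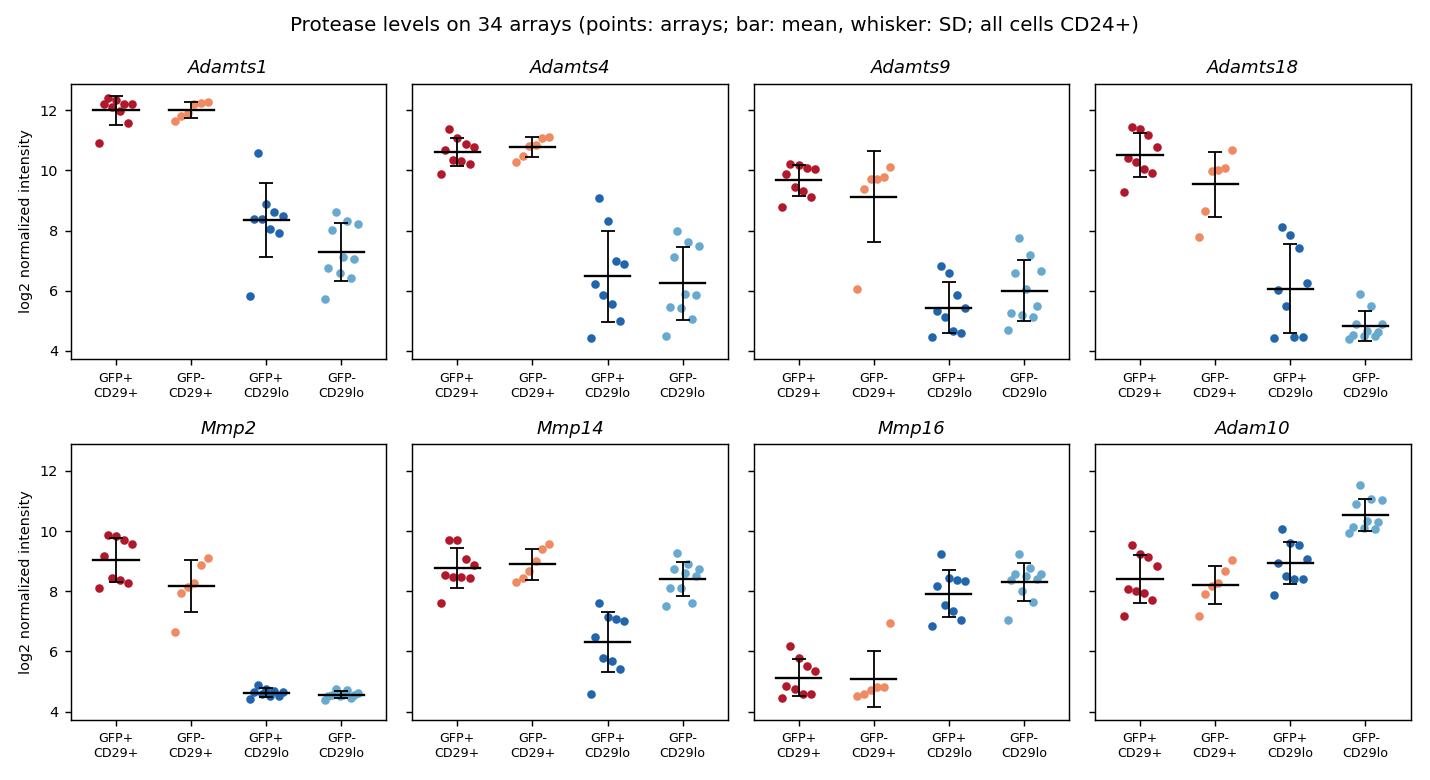
log2 normalized intensity of 8 proteases on each of the 34 arrays in the 4 sorted groups (columns; all cells CD24+), with the group mean and SD. Adamts1, Adamts4, Adamts18 and Mmp2 are higher on every CD29+ array than on every CD29lo array of the same GFP state, Mmp16 is lower, and Mmp14 is low mainly in GFP+ CD29lo cells.

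Mmp2, the gelatinase that cuts denatured and basement membrane collagen, was detected on every basal and on no luminal array. It read 8.12, 9.17 and 9.87 in GFP+ CD24+CD29+ and 6.65, 8.21 and 9.12 in GFP- CD24+CD29+ cells, while luminal arrays stayed between 4.43 and 4.90 in GFP+ and between 4.39 and 4.74 in GFP- cells. This was at least 14.8-fold in GFP+ cells (adjusted p 5.63e-15) and at least 8.74-fold in GFP- cells (adjusted p 8.62e-12). Fibroblasts also make Mmp2. The summed level of 7 fibroblast markers was 177.6, 289 and 550.2 (lowest, median and highest) in GFP+ CD24+CD29+ and 197.9, 494.8 and 631 in GFP- CD24+CD29+ cells, against 179.3, 281.9 and 539.8 in GFP+ and 174.3, 240.6 and 453.2 in GFP- CD24+CD29lo cells. The ranges overlapped, the GFP- basal median was the highest, and 1 of the 7 markers, Cd34, was higher in basal cells in both GFP states. The defining fibroblast gene Lum was detected on 2 of 9 and 1 of 6 basal arrays and on 0 luminal arrays. Mmp9, the other gelatinase, was detected on at most 3 arrays of any group and was not called.

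Beside the basal results stand 2 more marker lists. The summed level of 5 pericyte markers had a median of 191.4 in GFP+ CD24+CD29+ and 606.8 in GFP- CD24+CD29+ cells, against 223.9 in GFP+ and 209.3 in GFP- CD24+CD29lo cells, with Rgs5 higher in GFP- basal cells (3.43) and Notch3 lower in both GFP states. That of 5 adipocyte markers had a median of 594.4 in GFP+ and 1142 in GFP- basal cells, against 139.9 in GFP+ and 305.2 in GFP- luminal cells, with Fabp4 higher in basal cells of both GFP states, Lep in those of GFP+ cells, and the defining markers Adipoq and Plin1 detected on 1 and 2 of 9 GFP+ and on 0 of 6 GFP- basal arrays. The part of these 3 lists in the basal differences was not tested.

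The membrane-type MMPs, which sit at the cell surface and some of which can activate the Mmp2 precursor, divided between the layers. Mmp16 read 4.46, 4.85 and 6.19 in GFP+ CD24+CD29+ and 4.53, 4.78 and 6.95 in GFP- CD24+CD29+ cells, against 6.85, 8.17 and 9.23 in GFP+ and 7.05, 8.46 and 9.25 in GFP- CD24+CD29lo cells. All luminal arrays were above all basal ones of the same GFP state, and replicate 25 was again the array nearest to the luminal range. The differences were -2.81 ± 0.33 in GFP+ cells (adjusted p 8.96e-08) and -3.24 ± 0.36 in GFP- cells (adjusted p 4.37e-08). A second Mmp16 probe was called only in GFP- cells (-1.60) and the third in neither.

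Mmp17, which is tied to the membrane by a lipid anchor, was higher in basal cells, by at least 1.56-fold in GFP+ cells, where 0 of 9 luminal arrays detected it (adjusted p 0.0142), and by 1.20 ± 0.35 in GFP- cells (adjusted p 0.0212, and 0.105 without replicate 13). Mmp24 was called only in GFP- cells (1.48 ± 0.31, adjusted p 0.000952), with 0.63 ± 0.28 in GFP+ cells (adjusted p 0.194). Only 1 of its 4 probes was called. Mmp23, a membrane MMP without a hemopexin domain, differed by 1.04 ± 0.26 in GFP+ and 1.20 ± 0.28 in GFP- cells. Mmp14, the main activator of Mmp2, was called only in GFP+ cells, where luminal arrays were low. It read 7.62, 8.55 and 9.70 in GFP+ CD24+CD29+ against 4.58, 6.48 and 7.61 in GFP+ CD24+CD29lo cells (difference 2.46 ± 0.33, adjusted p 1.08e-06). In GFP- cells the values were 8.31, 8.84 and 9.56 in CD24+CD29+ and 7.50, 8.55 and 9.26 in CD24+CD29lo cells, which overlapped (0.49 ± 0.36, adjusted p 0.468).

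None of the 3 collagenases and 3 stromelysins or matrilysin tested was called between the gates. Mmp1a read 4.95, 7.05 and 8.07 in GFP+ and 6.61, 7.52 and 7.94 in GFP- basal cells, against 5.09, 7.64 and 8.93 in GFP+ and 5.35, 7.27 and 8.49 in GFP- luminal cells, so its groups overlapped. The array sets did not overlap for this probe within a gate. With each gate normalized by itself, first-set arrays read at most 5.151 in basal and 6.346 in luminal cells. Second-set arrays read at least 6.545 in basal and 7.258 in luminal cells, and the GFP- basal arrays all lie in that set. Mmp11 was detected on 6 of 34 arrays.

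Of 26 ADAM genes tested, 2 were called by 1 or more probes in each GFP state (7.69% of genes). Over all probes the share called was 10.4% in GFP+ and 10.3% in GFP- cells, counted per probe and so not directly comparable. Adam10, a sheddase of Notch receptors and E-cadherin, was lower in GFP- basal cells. It read 7.16, 8.23 and 9.02 in GFP- CD24+CD29+ and 9.94, 10.32 and 11.52 in GFP- CD24+CD29lo cells, with no overlap (-2.33 ± 0.34, adjusted p 7.13e-06), and its second probe was called too (-1.23). In GFP+ cells the difference was -0.52 ± 0.32 (adjusted p 0.401). Adam17, the sheddase of TNF and of several EGF-family ligands, was detected on all 34 arrays and was not called in GFP+ (0.05 ± 0.34, adjusted p 0.97) or GFP- cells (-0.40 ± 0.37, adjusted p 0.585).

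Adam22 and Adam23, neuronal adhesion proteins that lack a working protease site, had small differences. Adam22 was called by 1 probe in GFP- cells (0.97 ± 0.27, adjusted p 0.0158), while the probe with its highest mean was not (0.83, adjusted p 0.0967), and the call was lost without replicate 30 (adjusted p 0.0581). Adam23 was called in GFP+ cells only, by 1 of its 2 probes (0.74 ± 0.24, adjusted p 0.0387), and its difference was 0.03 within the first array set. Of the ADAMs known mainly from testis, 14 genes were tested, with 1, Adam4, lower in GFP+ basal cells (-0.70 ± 0.23, adjusted p 0.0427) and 0 called in GFP- cells. Only 1 of the 3 Adam4 probes was called. The calls of Adam23 and Adam4 were each lost without any 1 of 11 arrays, with adjusted p up to 0.0949 and 0.102.

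Of the TIMPs, Timp3, the one that binds to the matrix and blocks Adam17 and the aggrecanases, was higher in basal cells. It read 11.54, 11.98 and 12.20 in GFP+ CD24+CD29+ and 11.58, 11.79 and 12.13 in GFP- CD24+CD29+ cells, against 7.77, 10.30 and 11.80 in GFP+ and 9.17, 10.26 and 10.75 in GFP- CD24+CD29lo cells. GFP+ groups overlapped at their edges, with a single GFP+ luminal array, replicate 16, far below the rest. GFP- groups did not overlap. The difference was 1.70 ± 0.31 (adjusted p 0.000126) in GFP+ and 1.72 ± 0.34 (adjusted p 0.000431) in GFP- cells. All 3 Timp3 probes were called in both, the dimmer ones with 1.98 and 2.60 in GFP+ and 2.97 and 3.17 in GFP- cells.

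Timp2, which also takes part in Mmp2 activation by Mmp14, was detected on all arrays. Its medians were 9.94 in GFP+ and 9.40 in GFP- CD24+CD29+ cells, against 9.37 in GFP+ and 9.66 in GFP- CD24+CD29lo cells, and it was not called (0.54 in GFP+, -0.22 in GFP- cells). Timp1 was detected on 19 arrays, 5 of 9 GFP+ and 2 of 6 GFP- basal ones and 3 of 9 GFP+ and 9 of 10 GFP- luminal ones, and was not called. Timp4 was detected nowhere.

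**Figure D4:**
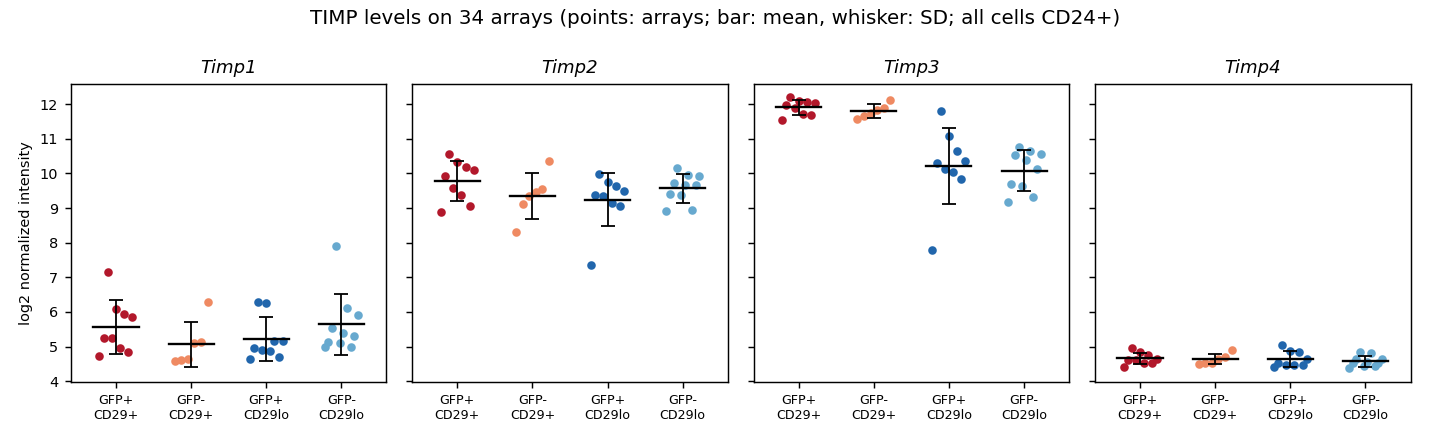
log2 normalized intensity of the 4 TIMP genes on each of the 34 arrays in the 4 sorted groups (columns; all cells CD24+), with the group mean and SD. Timp3 lies between 11.54 and 12.20 on CD29+ arrays and spreads between 7.77 and 11.80 on CD29lo arrays, Timp2 overlaps in all groups, and Timp4 stays at background.

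The substrates and partners of these families were counted from lists chosen with results of these data known. Over all probes tested, counted per probe, 5.53% were higher and 4.86% lower in basal GFP+ cells. In basal GFP- cells these shares were 5.29% and 5.04%. Of 11 matrix substrates tested, 6 were higher in basal GFP+ and 8 in basal GFP- cells, with 0 lower in either. The largest of these differences in GFP- cells were those of Col4a2 (5.25), Sparc (5.22), Col4a1 (5.00) and Vcan (4.14), which encode basement membrane collagen, a collagen-binding glycoprotein and versican. Of 8 other protease inhibitors, 3 were higher and 2 lower in basal GFP+ cells and 5 higher and 2 lower in basal GFP- cells. Serpinf1 (3.26 in GFP+ and 4.71 in GFP- cells) and Serpina3n (4.39 in GFP+ and 4.20 in GFP- cells) were higher, and Spint1, an inhibitor of the surface protease matriptase, was lower (-4.22 in GFP+ and -2.44 in GFP- cells).

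Of 20 genes whose products ADAMs shed, 4 were higher and 5 lower in basal GFP+ cells, and 3 were higher and 4 lower in basal GFP- cells. The Notch ligand Jag1 (4.11) and the proteoglycan Sdc1 (2.24) were higher in GFP+ basal cells, while Alcam (-2.55) and Cxcl16 (-2.26) were lower. Of 16 activators and cofactors, 4 were higher and 3 lower in GFP+ cells, and 2 were higher and 2 lower in GFP- cells. Among these were tetraspanins that travel with Adam10, of which Tspan5 was higher (2.66 in GFP+ and 2.61 in GFP- cells) and Tspan33 lower (-4.60 in GFP+ and -4.04 in GFP- cells). Of 15 other secreted or surface proteases, 3 were higher and 3 lower in each state, with Tmprss2 (-3.21 in GFP+ and -4.54 in GFP- cells) and St14, which encodes matriptase (-3.20 in GFP+ and -2.66 in GFP- cells), lower and Htra1 (2.75 in GFP+ and 2.78 in GFP- cells) higher in basal cells.

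Within the luminal gate GFP+ cells were set against GFP- cells, and these arrays were normalized and fitted by themselves. Of 98 member probes tested, 2 passed in limma, or 2.04%, against 1.03% of all probes, and both were lower in GFP+ cells (0.802% of all probes were). They belonged to Mmp14 and Adam10.

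Mmp14 read 4.57, 6.53 and 7.63 in GFP+ CD24+CD29lo cells and 7.51, 8.55 and 9.26 in GFP- CD24+CD29lo cells. The highest GFP+ array (7.628) lay just above the lowest GFP- array (7.514) and level with the next GFP- array (7.628). The groups otherwise did not overlap. The difference was -2.06 ± 0.35 (4.18-fold lower in GFP+; adjusted p 0.00349). Its second probe, detected on 0 luminal arrays, was at background in both groups.

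Adam10 read 7.87, 8.94 and 10.05 in GFP+ CD24+CD29lo cells and 9.93, 10.31 and 11.51 in GFP- CD24+CD29lo cells, a difference of -1.60 ± 0.28 (3.02-fold lower in GFP+; adjusted p 0.00397). The highest GFP+ array (10.05) lay above the lowest GFP- array (9.926) and level with the next GFP- array (10.05). The groups otherwise did not overlap. Its second probe differed in the same direction by -0.70 and was not called (adjusted p 0.373).

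Both array sets held both luminal groups, and the GFP difference had nearly the same size in each. For Adam10 it was -1.70 ± 0.32 in the first set (4 GFP+ and 4 GFP- arrays) and -1.59 ± 0.21 in the second (5 and 6 arrays), with adjusted p-values of 0.0589 and 0.011. Within either set no GFP+ array reached the GFP- arrays: in the first set Adam10 read 8.51 to 10.05 in GFP+ and 10.89 to 11.51 in GFP- cells, and in the second 7.87 to 9.07 in GFP+ and 9.93 to 10.32 in GFP- cells. For Mmp14 the difference was -1.92 ± 0.46 in the first and -2.16 ± 0.51 in the second set, with adjusted p-values of 0.107 and 0.161, so the call was not reached within either set alone. In the first set Mmp14 read 5.46 to 7.1 in GFP+ and 7.51 to 8.89 in GFP- cells. In the second set it read 4.57 to 7.63 in GFP+ and 7.63 to 9.26 in GFP- cells, so the groups met there. A fit that included the set gave adjusted p-values of 5.08e-05 for Adam10 and 0.00386 for Mmp14.

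**Figure D5:**
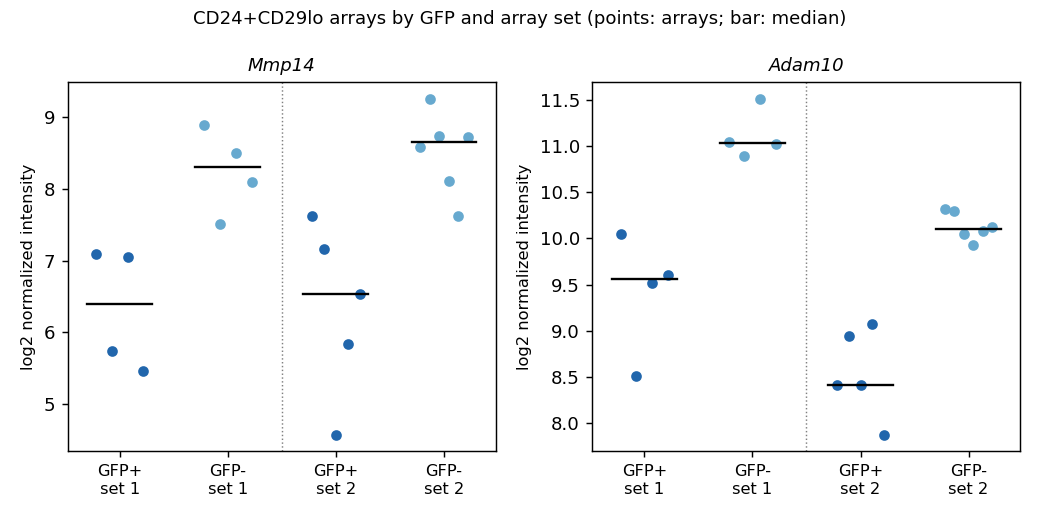
log2 normalized intensity of Mmp14 (left) and Adam10 (right) on each CD24+CD29lo array, split by GFP and by array set, with the median as a bar. In both sets the GFP+ medians (6.39 and 6.53 for Mmp14, 9.56 and 8.41 for Adam10) lie below the GFP- medians (8.30 and 8.65, 11.04 and 10.10).

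Markers of several cell types moved with GFP in these luminal cells. The summed level of 8 basal markers was 1108, 2694 and 6129 (lowest, median and highest) in GFP+ and 583.1, 1557 and 2699 in GFP- CD24+CD29lo cells, and 1 of the 8, Acta2, was higher in GFP+ cells (2.61). Of 9 luminal markers, Cd14 (0.93) and Ltf (0.86) were higher and the hormone receptors Esr1 (-2.74) and Pgr (-1.86) lower, while their sum was 19110, 24790 and 34260 in GFP+ and 19190, 22220 and 31340 in GFP- cells. The sum of 5 adipocyte markers was 112.5, 139.9 and 283.3 in GFP+ and 135, 305.2 and 534.8 in GFP- cells, with Fabp4 lower (-2.12) and Cidec detected on 0 arrays. The part of these markers in the calls of Mmp14 and Adam10 was not tested.

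Further members with an unadjusted p under 0.05 that were not called included Adam17 (-0.85 ± 0.30, adjusted p 0.274), Adam9 (-0.44 ± 0.19, adjusted p 0.446), Adamts1 (1.05 ± 0.47, adjusted p 0.456) and Adamts15 (1.24 ± 0.47, adjusted p 0.33). In all, 12 member probes had such a p.

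Among genes whose products ADAMs shed, 4 of 20 were lower and 1 was higher in GFP+ luminal cells. Over all probes tested, counted per probe, 1.03% were called and 0.802% were lower. This list was chosen with results of these data known, so its count is not a test of the list. Jag1 (-2.86), Epgn (-1.92), Sdc1 (-1.80) and Alcam (-1.78) were lower and the chemokine Cxcl16 (1.99) was higher. Of the 10 matrix substrates tested, 1, Thbs1, was higher (2.04), and no gene of the inhibitor, activator and other protease lists was called.

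Within the basal gate, GFP+ against GFP- cells gave 0 calls among 107 member probes, where 0.0305% of all probes passed. At an unadjusted p under 0.05 there were 12 member probes in limma, and the methods' t-test called 0 as well. All GFP- CD24+CD29+ arrays lay in the second array set. The groups did not overlap for 1 of the 107 member probes, beside 0.131% of all probes tested. It was that of Adamts7, which read 4.97, 5.55 and 6.84 in GFP+ CD24+CD29+ and 4.46, 4.68 and 4.85 in GFP- CD24+CD29+ cells. The gene passed detection on 7 of the 9 GFP+ arrays but 0 of the 6 GFP- arrays, at least 1.35-fold higher (0.91 ± 0.26, adjusted p 0.467). Its difference was 0.74 ± 0.31 within the second set (adjusted p 0.977). In a fit that included the array set it was 0.74 ± 0.29 (adjusted p 0.899). When all 34 arrays were normalized and fitted together, the Adamts7 difference was 0.98 ± 0.19 and it was called (adjusted p 0.012). That fit takes its spread from the luminal arrays as well. Mmp14, called in the luminal gate, differed here by -0.13 ± 0.31 (adjusted p 0.911), and by -0.10 ± 0.41 within the second set. Adam10 differed by 0.21 ± 0.38 (adjusted p 0.885) and turned to -0.43 ± 0.32 within the second set (adjusted p 0.977). Of the shed substrates, 1 of 19, Alcam, was lower (-2.54).

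Whether the GFP difference itself changed between the gates was tested by the interaction over all 34 arrays. Of 117 member probes 1 passed, beside 0.27% of all probes, and 9 had an unadjusted p under 0.05. The 1 called was Adamts7, with a GFP difference lower by 1.07 ± 0.25 in luminal than in basal cells (adjusted p 0.0461). It read 5.01, 5.64 and 6.89 in GFP+ CD24+CD29+ cells, above every array of the other 3 groups, whose medians were 4.67 (GFP- CD24+CD29+), 4.51 (luminal GFP+) and 4.53 (luminal GFP-). The call was lost without any 1 of 29 of the 34 arrays (adjusted p up to 0.0909), and without background correction (adjusted p 0.078). For Mmp14 the interaction was -1.97 ± 0.49 (adjusted p 0.0928) and for Adam10 -1.81 ± 0.47 (adjusted p 0.11), so that their luminal GFP differences were not shown to differ from those in basal cells. In the authors' processed values Adam10 passed (-1.27, adjusted p 0.00296), as it did in a fit that included the array set (-1.37, adjusted p 0.0484).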

How the data were processed

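RNA from sorted cells was amplified and hybridised by the authors to Illumina mouse bead arrays. The deposited table holds 1 linear probe intensity per array with no normalization, and beside it a deposited fraction, 1 minus the detection p. The authors' processed log2 values were a second deposited table. The study's methods name quantile normalization and an empirical Bayes correction for 2 collection dates, but which steps made that table is not given in the sources used here, nor is its centring, and the submitters' processing notes name R 2.14.1.

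Intensities were background-corrected with normexp from detection p-values, quantile-normalized with an offset of 16 and taken to log2 (neqc in limma 3.58.1, R 4.3.3). A probe entered the test if, in 1 or more groups, 80% or more of the arrays gave it a value above that array's percentile 20. Gate comparisons and the interaction came from a 4-group fit of 34 arrays, and each GFP comparison from its own gate's arrays. The test was limma's moderated one, two-sided, with p-values adjusted by Benjamini-Hochberg across every tested probe and called at 0.05. Folds against a group with no detected array are lower bounds, taken against the dimmest detected signal of each array. Each value printed after ± is a standard error of the difference.

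Genes were named by rule: the TIMPs, called members (those of the 12 largest differences per comparison with values by group) and the member with the highest mean of each family list. Members and lists were chosen with earlier results of these data known. Probe symbols came from the platform annotation: 34885 probes had 1 symbol, 18 had several and 10378 had none, and all were tested. The fit was tested on simulated data. Promoters came from RefSeq. Alternatives were the background correction, the authors' processed values, the filter, the array set, each array left out and the methods' t-test. The number of arrays limits the precision.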

Additional observations from a re-analysis of the deposited data

Results flagged for a closer look

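Among 88 sets of array values (22 named members in 4 groups), 15 held an array at one end that stood far from its neighbours. The rule flags about 1 in 20 sets of independent, normally distributed values. These sets share the same 34 arrays and several lie near background, so the count cannot be read against that rate. In GFP- CD24+CD29+ cells, replicate 25 had the lowest Adamts9 level (6.056, the next array at 9.388) and the highest Mmp16 level (6.947, the next at 4.833). In GFP+ CD24+CD29lo cells, Timp3 was lowest on replicate 16 (7.774, the next at 9.837), Timp2 on replicate 22 (7.367, the next at 9.045) and Adam17 on replicate 19 (8.037, the next at 9.518). Timp1 was highest on replicate 30 of the GFP- CD24+CD29+ group (6.272) and on replicate 31 of the GFP- CD24+CD29lo group (7.893, the next at 6.119).

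Dim genes gave the other cases, each with a single high array. For Adamts3 these were replicate 24 of GFP+ CD24+CD29+ (6.3), replicate 25 of GFP- CD24+CD29+ (4.781, not detected), replicate 23 of GFP+ CD24+CD29lo (6.201) and replicate 7 of GFP- CD24+CD29lo cells (6.71). For Mmp11 they were replicate 11 of GFP+ CD24+CD29+ (6.602), replicate 12 of GFP+ CD24+CD29lo (5.14) and replicate 8 of GFP- CD24+CD29lo cells (5.66). Mmp23 was highest on replicate 14 of GFP- CD24+CD29lo cells (5.537). For Adamts7 the test of whether the GFP difference itself differed between the gates passed narrowly (-1.07 on the log2 scale, luminal minus basal, adjusted p 0.0461). It was lost without any 1 of 29 of the 34 arrays, and under 5 of the 6 other settings tried.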

How the results depend on the processing

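No called member changed direction under the alternatives run. Of the differences recomputed that were not called, 3 changed sign. Adam10 in basal GFP+ against GFP- cells gave -0.43 both within the second set and in a fit that included the array set, -0.16 in the authors' processed values and -0.01 to 0.37 with each array left out. Adam17 between the gates in GFP+ cells gave -0.03 within the second set and -0.17 to 0.29 with each array left out, and Mmp14 in basal GFP+ against GFP- cells gave -0.25 to 0.02 in the same way. The number of member probes called between the gates stayed within 1.5 times, and was 19 to 21 in GFP+ and 21 to 23 in GFP- cells when each array was left out in turn. In luminal GFP+ against GFP- cells 2 were called without any 1 array, against 1 (Adam10) within the second array set and 0 within the first, which hold fewer arrays. In the same comparison of basal cells 0 were called without any 1 array, and 1 (Adamts7) when the 34 arrays were normalized and fitted together. For the interaction the count was 2 in the authors' processed values, 0 without background correction, 0 without the filter on dim probes, 0 with only probes detected on 50% of a group's arrays, 0 within the second set, and 0 to 2 with each array left out. With the array set as a term 1 passed, Adam10 in place of Adamts7. Fits within the first set could not be made where GFP- CD24+CD29+ arrays are needed, since that set holds none.

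Calls of single genes lost without 1 array were those of Adamts10 in GFP- cells (replicates 5, 13, 21 or 29), Mmp17 in GFP- cells (replicate 13), Adam22 (replicate 30), and Adam23 and Adam4 in GFP+ cells. Gate calls were also lost within the array sets, which hold fewer arrays. In GFP- cells 4 of the 30 probe differences followed lost their call within the second set, where all GFP- basal arrays lie. In GFP+ cells 6 of 27 lost it within the first set, where 2 others gained one, and 3 within the second. A fit that included the set lost 1 call in GFP- and 0 in GFP+ cells. No paired analysis was possible because no replicate number occurs in more than 1 group. Of the 78 genes, 43 were detected on under 50% of the arrays in every group, and for these the arrays limit what can be seen.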
